A study of Mus musculus with 8 samples.

Results

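The MYC, MAX and MXD network was examined through 10 genes selected by their symbols: the MYC family (Myc, Mycl and Mycn), the shared partners Max and Mlx, and the repressor arm (Mxd1, Mxi1, Mxd3, Mxd4 and Mnt). All 10 were found among the 39017 genes of the count table, and all 10 passed the filter on low counts, which left 15816 genes to test. RNA came from satellite cells, the muscle stem cells that lie along the fibre, isolated from the diaphragm and abdominal muscle of adult Pax3GFP/+ mice, so every library carried the GFP reporter in place of 1 Pax3 allele. The cells were plated at 7500 per 35 mm plate and grown for 4 days either in 10 µM sal003, an inhibitor of eIF2α dephosphorylation (4 libraries), or in the vehicle DMSO (4 libraries). Separate cultures, animals or pools are not named in the labels, so the p-values describe the spread between these libraries, which may be partly technical.

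Proteins of the network carry a basic helix-loop-helix leucine zipper and bind DNA as dimers. MAX pairs with MYC proteins to activate transcription at E-box sequences, and it pairs with the MXD proteins or MNT to recruit SIN3 and histone deacetylases to the same sites. MLX is a second hub that pairs with the glucose-sensing factors MondoA and ChREBP and with some MXD proteins and MNT. In muscle precursors MYC is known as a driver of growth and proliferation that opposes terminal differentiation, and MXD genes are known for their expression in cells that leave the cell cycle.

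Libraries held between 32753929 and 40234107 counts. DMSO replicate 2 stood apart, with 14437 genes detected against 16561 to 18076 in the other 7 libraries and a Spearman correlation of at most 0.949 with another DMSO library, where the other DMSO libraries reached at least 0.977 among themselves. Pax7, the defining transcription factor of satellite cells, averaged 72.1 ± 6.74 CPM (counts scaled to the size of each library) in DMSO against 97.2 ± 2.54 CPM with sal003 (SD, n = 4). It is 1 of 9 listed markers of muscle stem cells and myoblasts, of which 2 rose (Pax7 and Met), 3 fell (Des, Cdh15 and Itga7) and 4 did not pass. Their summed level ran from 4389 to 5040.4 CPM in DMSO and from 2796 to 3054.5 CPM in sal003, without overlap. Most of that drop was in Des alone, the most abundant of the 9, whose mean fell from 2941 to 1171 CPM. Across the 9 markers the median log2 fold change was 0.33, so the lower sum does not describe the list as a whole. All 10 markers of differentiating myocytes fell in sal003, and their summed level ran from 52985 to 76347 CPM in DMSO and from 15725 to 18093 CPM in sal003. Summed markers of smooth muscle and pericytes ran from 329 to 416 CPM in DMSO and from 198 to 222 CPM in sal003. Of the 4 that could be tested 3 fell (Abcc9, Cspg4 and Notch3), and these genes held nearly all of the sum. Rgs5 did not pass, and its mean was at most 0.703 CPM in either condition. Myh11 and Kcnj8, with 200 and 10 counts over all 8 libraries, did not reach the filter. The endothelial, immune and glial lists, each taken alone, summed to at most 6.04 CPM in any library, with the pan-leukocyte gene Ptprc at 0 counts in all 8. The fibro-adipogenic list summed to between 95.8 and 118 CPM, nearly all of it Col3a1, and Dcn, Lum and Dpt were at 0 counts in every library. The share that these shifts have in the results on the network was not tested, and in bulk RNA fewer cells of a type cannot be told apart from less RNA per cell.

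Myc rose in sal003, while Mycl and Mxd4 fell, and the other 7 members did not pass the test. Thus 3 of 10 members were called at an adjusted p under 0.05 in the edgeR quasi-likelihood fit, 1 higher and 2 lower. Among all tested genes 22.7% were called, 10.6% higher and 12.2% lower, so the share of members called was near the background. The median log2 fold change was -0.04 over the members and -0.0034 over all tested genes. Libraries of the 2 conditions did not overlap at 4 members, the 3 called and Mxd1, against 26.8% of all tested genes.

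**Figure D1:**
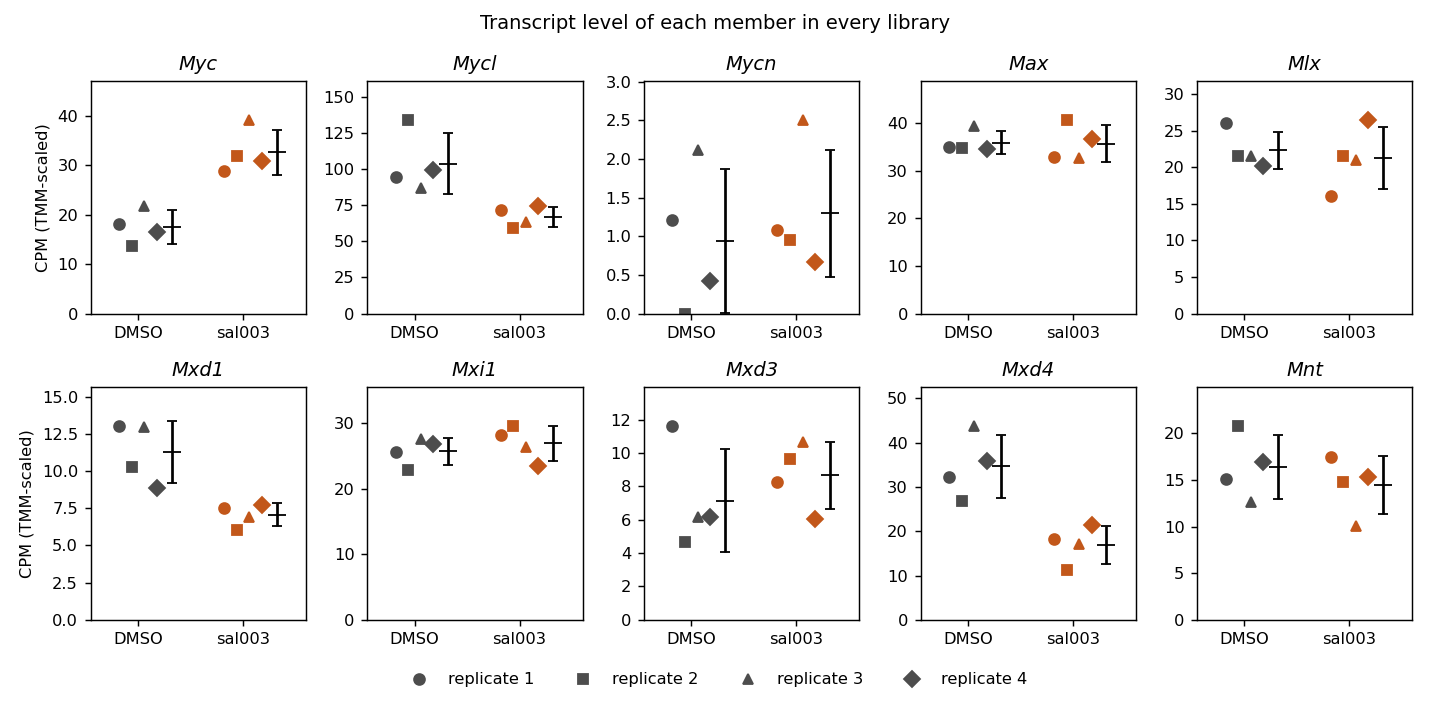
TMM-scaled CPM of each member (y axis, from 0, own scale per gene) in the 4 DMSO and 4 sal003 libraries, with 1 symbol per replicate number and the mean ± SD beside each group. All sal003 libraries lie above all DMSO libraries for Myc and below them for Mycl, Mxd4 and Mxd1, and the groups overlap for the other 6 genes.

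Myc encodes c-MYC, the widely expressed activator of the family (ENSMUSG00000022346, mm10 chromosome 15, 61985391 to 61990374, plus strand). Its level was 18.2, 13.7, 21.8 and 16.4 CPM in DMSO replicates 1 to 4 and 28.7, 31.8, 39.1 and 30.8 CPM in sal003 replicates 1 to 4. Every sal003 library was above every DMSO library, with DMSO replicate 2 the lowest of all and sal003 replicate 3 the highest. The means were 17.5 ± 3.38 CPM and 32.6 ± 4.53 CPM (SD, n = 4), 1.86-fold higher in sal003. The log2 fold change was 0.90 ± 0.18 (SE, 95% interval 0.51 to 1.28; edgeR adjusted p = 0.00175), and it was 0.81 without DMSO replicate 2 (adjusted p = 0.000760). Pvt1, the long non-coding RNA gene beside Myc, chosen after its value was seen, averaged 10.9 ± 3.03 CPM in DMSO against 10.4 ± 3.10 CPM with sal003 and was not called (log2 fold change -0.07 ± 0.29, adjusted p = 0.919).

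Mycl encodes L-MYC, a family member of narrower expression than c-MYC (ENSMUSG00000028654, chromosome 4, 122995652 to 123002485, plus strand). DMSO replicates 1 to 4 held 94.3, 134, 86.7 and 99.4 CPM of Mycl. In sal003 replicates 1 to 4 the values were 71.4, 59.2, 63.2 and 74.1 CPM. The groups did not overlap, and DMSO replicate 2, the lowest library for Myc, was the highest for Mycl. Mycl fell 1.55-fold, from 104 ± 20.9 to 67.0 ± 6.96 CPM (SD, n = 4), a log2 fold change of -0.63 ± 0.14 (95% interval -0.92 to -0.34; edgeR adjusted p = 0.00285). Without DMSO replicate 2 it was -0.47 (adjusted p = 0.00160).

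Mycn, which encodes N-MYC, known mainly from embryonic and neural tissue, had the lowest level of the members (ENSMUSG00000037169, chromosome 12, 12936093 to 12941914, minus strand). It had 38, 0, 72 and 16 counts in DMSO replicates 1 to 4 and 44, 40, 100 and 26 counts in sal003 replicates 1 to 4. The ranges overlapped, and DMSO replicate 2 held no count. The 95% interval of its log2 fold change ran from -2.13 to 3.08 (adjusted p = 0.859), so with this spread between libraries a difference of several fold in either direction could not be resolved.

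Put on a common scale of CPM per kb of annotated exon, so that genes of different length can be compared, Mycl was the most abundant member in both conditions. The length merges the exons of all annotated transcripts of a gene, and which of these transcripts were present was not tested. Comparisons between genes on this scale therefore depend on the annotation. In DMSO it stood at 25.6 ± 5.18 CPM per kb, above Mlx (11.2 ± 1.27), Max (9.99 ± 0.662) and Myc (6.45 ± 1.24). In sal003 Mycl stood at 16.6 ± 1.72 CPM per kb, and Myc, at 12.001 ± 1.67, came next, ahead of Mlx (10.6 ± 2.12) and Max (9.92 ± 1.07). The libraries of Mlx and Max overlapped in DMSO, and those of Myc, Mlx and Max overlapped in sal003, so the order among these neighbours lies within their spread. In both conditions the libraries of Mycl lay above those of every other member.

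The make-up of the MYC family transcripts differed between the conditions, while the ranges of their sum overlapped. Myc made up 20.4% ± 5.59 of the family's summed CPM per kb in DMSO and 41.4% ± 4.71 in sal003 (SD, n = 4), while the sum itself was 32.4 ± 3.90 and 29.0 ± 1.80 CPM per kb. The ratio of Mycl to Myc per kb was 3.49, 6.58, 2.68 and 4.07 in DMSO replicates 1 to 4. It was 1.67, 1.25, 1.09 and 1.62 in sal003 replicates 1 to 4. Every DMSO ratio exceeded every sal003 ratio, and DMSO replicate 2 had the highest. The sum ran from 30.1 to 38.2 CPM per kb in DMSO libraries and from 26.7 to 30.8 in sal003 libraries. These ratios and shares are descriptions with no test of their own, because they combine the values of Myc and Mycl already tested.

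**Figure D2:**
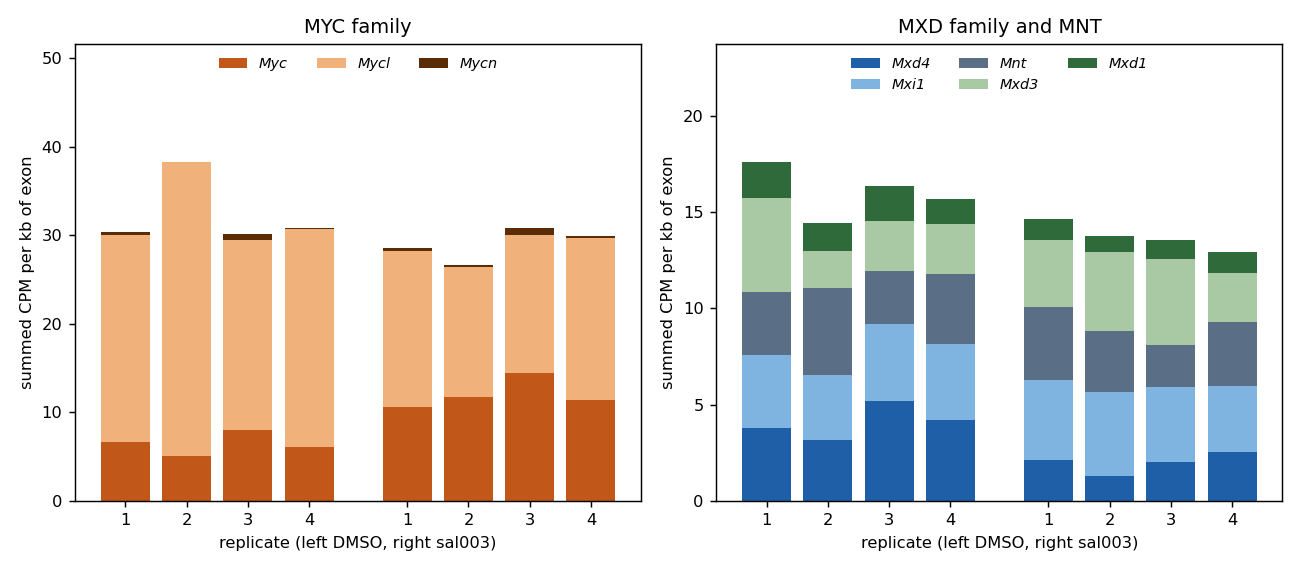
Summed CPM per kb of exon (y axis, from 0) in each library, stacked by gene for the MYC family (left panel) and for the MXD family with Mnt (right panel), with DMSO replicates 1 to 4 on the left and sal003 replicates 1 to 4 on the right of each panel. The Myc segment is taller and the Mycl segment shorter in every sal003 library, and the Mxd4 segment at the base of the right panel is shorter in every sal003 library.

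Max, the obligate partner of MYC proteins (ENSMUSG00000059436, chromosome 12, 76937269 to 76962201, minus strand), had 35.0, 34.7, 39.5 and 34.5 CPM in DMSO replicates 1 to 4. Its values in sal003 replicates 1 to 4 were 32.8, 40.7, 32.6 and 36.7 CPM. The groups overlapped over nearly their whole range. The log2 fold change was -0.01 ± 0.14, with a 95% interval of -0.30 to 0.28 (edgeR adjusted p = 0.978). Mlx (ENSMUSG00000017801, chromosome 11, 101087277 to 101092207, plus strand) ranged from 20.2 to 26.0 CPM in DMSO and from 16.1 to 26.5 CPM in sal003, and its interval was -0.46 to 0.33 (adjusted p = 0.865). For both hubs the interval leaves out a doubling or a halving, but smaller differences were not resolved. Of the exon bases of Mlx, 385 overlap Psmc3ip on the opposite strand, and the strand setting of the counting is not given in the sources used here.

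Mxd4 encodes a MAX-binding repressor of the MXD family (ENSMUSG00000037235, chromosome 5, 34173883 to 34187720, minus strand). It was measured at 32.2, 26.9, 43.8 and 35.7 CPM in DMSO replicates 1 to 4 and at 18.1, 11.1, 17.1 and 21.3 CPM in sal003 replicates 1 to 4. Every sal003 library lay below every DMSO library. The means were 34.7 ± 7.07 CPM and 16.9 ± 4.27 CPM (SD, n = 4), 2.05-fold lower in sal003, with a log2 fold change of -1.03 ± 0.21 (95% interval -1.48 to -0.58; edgeR adjusted p = 0.00190). Of its exon bases, 514 overlap the antisense gene Gm42846. The ratio of Myc to Mxd4 per kb ranged from 1.44 to 1.76 in DMSO and from 4.504 to 8.91 in sal003, a description that rests on the same values. It depends on the merged exon lengths, 2717 bases for Myc and 8483 for Mxd4. In CPM, without that division, Myc averaged 17.5 against 34.7 for Mxd4 in DMSO. In sal003 the averages were 32.6 and 16.9 CPM.

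Because E-boxes are where the dimers of the network bind, the promoters of the members were searched for the palindromic E-box CACGTG, in RefSeq windows of 250 bases before and 50 bases after each gene's start on GRCm38.p6, the assembly of mm10. RefSeq windows were found for 9 members, all but Myc. The motif was present in 4 of these 9 genes, Max, Mlx, Mxd4 and Mnt, and in 8.09% of all 27025 genes with a window. The 30 bases around each site are shown 5′ to 3′ on the gene's strand, with the E-box in capitals, so that the flanks of the member that fell can be compared with those of the 3 members that did not pass the test.
Mxd4 (chr5:34187912-34187941, minus strand): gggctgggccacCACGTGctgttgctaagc
Max (chr12:76962234-76962263, minus strand): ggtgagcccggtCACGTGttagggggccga
Mlx (chr11:101087238-101087267, plus strand): ggtgggttggatCACGTGactgagcctcgc
Mnt (chr11:74830789-74830818, plus strand): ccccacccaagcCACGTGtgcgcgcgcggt

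The first base of the E-box lay 219 bases before the RefSeq start in Mxd4, 123 bases before it in Mnt and 40 bases before it in Mlx. In Max it lay 3 bases before the RefSeq start, so that this E-box spans that start. It lies upstream of the annotated Max gene, which begins at 76962201 on the minus strand. For Mxd4, the member with the largest change past the threshold, a stretch of 200 bases around the E-box is given with the E-box in capitals; all of it lies upstream of the annotated starts, the nearest of which is at 34187720, and the bases next to the starts are not shown.
Mxd4 upstream (chr5:34187761-34187960, minus strand): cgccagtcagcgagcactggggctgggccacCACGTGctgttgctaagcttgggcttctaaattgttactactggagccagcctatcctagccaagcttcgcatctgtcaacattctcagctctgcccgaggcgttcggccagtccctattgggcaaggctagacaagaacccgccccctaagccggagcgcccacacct

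Mycl, the other member that fell, had no CACGTG in its window. All windows were also searched on both strands for E-box forms that myogenic factors are known to bind. The form CACCTG occurred in 22.6% of the genes with a window and among the members in that of Mycl alone, its first base 106 bases before the RefSeq start. This site lies inside the annotated Mycl gene, downstream of its start at 122995652. The form CAGCTG occurred in 18.3% of the genes with a window and in 0 members. The 30 bases around the site in Mycl are shown with it in capitals.
Mycl (chr4:122995813-122995842, plus strand): tggggccggcccCACCTGtcgccagcggag

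A match describes letters in a window, and binding was not measured.

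Mxd1, the founding MXD gene, often induced as cells differentiate (ENSMUSG00000001156, chromosome 6, 86647042 to 86669161, minus strand), held 13.04, 10.3, 12.99 and 8.86 CPM in DMSO replicates 1 to 4. In sal003 replicates 1 to 4 it held 7.55, 6.05, 6.92 and 7.75 CPM. All sal003 libraries were below all DMSO libraries, yet the log2 fold change of -0.68 ± 0.26 (95% interval -1.22 to -0.13) did not pass over all genes (edgeR adjusted p = 0.0727). Mxd1 did pass without DMSO replicate 2 (-0.71, adjusted p = 0.0430), with the Wald test of DESeq2 (-0.68, adjusted p = 0.0418) and with limma-voom with sample quality weights, which changes both the method and the weight of each library (-0.71, adjusted p = 0.0346).

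The remaining repressors did not separate the conditions. Mxi1, an MXD paralogue (ENSMUSG00000025025, chromosome 19, 53310518 to 53375810, plus strand), ranged from 22.9 to 27.6 CPM in DMSO and from 23.5 to 29.6 CPM in sal003 (log2 fold change 0.06, 95% interval -0.26 to 0.39; adjusted p = 0.843). Of the exon bases of Mxi1, 194 overlap Gm10197 on the opposite strand. Mnt, the broadly expressed repressor that competes with MYC for MAX (ENSMUSG00000000282, chromosome 11, 74830920 to 74845725, plus strand), ranged from 12.6 to 20.8 CPM and from 10.1 to 17.5 CPM (-0.18, -0.67 to 0.31; adjusted p = 0.671). DMSO replicate 2 had the highest Mnt value, and without it the log2 fold change was -0.04.

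Mxd3, known for its expression in S phase (ENSMUSG00000021485, chromosome 13, 55325168 to 55329823, minus strand), had 11.6, 4.66, 6.17 and 6.15 CPM in DMSO replicates 1 to 4. In sal003 it had 8.26, 9.66, 10.7 and 6.07 CPM. DMSO replicate 1 exceeded all 4 sal003 libraries and sal003 replicate 4 fell among the other DMSO libraries, so the groups overlapped (log2 fold change 0.28 ± 0.33, edgeR adjusted p = 0.649). Its interval, -0.43 to 0.98, was wide, and the value was 0.13 without DMSO replicate 2 and 0.62 without DMSO replicate 1. Of the 2369 exon bases of Mxd3, 105 overlap Prelid1 on the opposite strand.

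**Figure D3:**
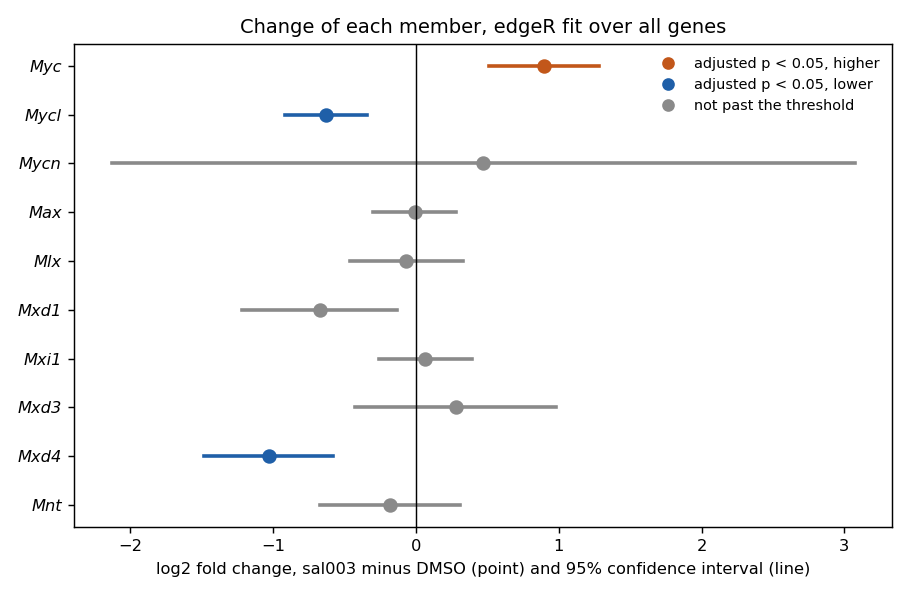
Log2 fold change of each member, sal003 minus DMSO (points), with its 95% confidence interval (lines) from the edgeR fit over all 15816 tested genes. Myc lies above 0 and Mycl and Mxd4 below 0 at an adjusted p under 0.05, the interval of Mxd1 excludes 0 without passing the adjustment over all genes, and Mycn has the widest interval.

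Per kb of exon the MXD family and Mnt summed to 16.0 ± 1.31 CPM per kb in DMSO and 13.7 ± 0.697 CPM per kb in sal003 (SD, n = 4), with ranges of 14.4 to 17.6 and 12.9 to 14.6 that overlapped. Mxd4 had the highest mean of this arm in DMSO, at 4.08 ± 0.833 CPM per kb, but in sal003, at 1.997 ± 0.503, it lay behind Mxi1 (3.95 ± 0.386), Mxd3 (3.66 ± 0.838) and Mnt (3.11 ± 0.672). In DMSO the libraries of Mxd4, Mxi1, Mnt and Mxd3 overlapped, so their order there lies within the spread. In sal003 the libraries of Mxd4 (1.31 to 2.52 CPM per kb) overlapped those of Mnt (2.18 to 3.78) but not those of Mxi1 or Mxd3. Mxd1 was the lowest of the arm in both conditions, at 1.596 ± 0.293 and 0.999 ± 0.108 CPM per kb. The summed MYC family stood at 2.05 ± 0.412 times the summed repressor arm in DMSO and at 2.12 ± 0.201 times in sal003, with overlapping ranges. The size of this ratio depends on the merged exon lengths.

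The wider network showed no call among its 3 genes with edgeR, DESeq2 or limma-voom, and 0 of them had an unadjusted p under 0.05. Mga, a very large MAX partner that joins a Polycomb complex, averaged 218 ± 42.0 CPM in DMSO against 241 ± 12.4 CPM with sal003 (log2 fold change 0.14 ± 0.12, edgeR adjusted p = 0.464). Mlxip, which encodes MondoA, stood at 41.3 ± 4.47 and 46.5 ± 5.95 CPM (0.17 ± 0.14, adjusted p = 0.459), and Mlxipl, which encodes ChREBP, had a mean of at most 0.669 CPM in either condition. Of 3 genes known as MondoA targets edgeR called 0, also at an unadjusted p under 0.05, DESeq2 called 0 and limma-voom called 1, lower. Txnip, which limits glucose uptake, averaged 3.70 ± 0.892 CPM in DMSO against 0.944 ± 0.764 CPM with sal003 without overlap, and was not called (log2 fold change -1.97 ± 0.93, edgeR adjusted p = 0.160). The other listed targets, Arrdc4 (-0.20 ± 1.55) and Klf10 (0.05 ± 0.19), overlapped between the conditions.

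Genes known to be activated by MYC rose in sal003 more often than they fell. Of 58 listed and tested, 37 rose (63.8%, against 10.6% of all tested genes), 2 fell (3.45%, against 12.2%) and 19 did not pass. The median log2 fold change over these genes was 0.55, where that over all tested genes was -0.0034. The list was chosen with earlier results of these data known, and whether MYC had a part in these changes was not tested. The nucleolar proteins Ncl and Npm1 had the lowest p. Ncl went from 736 ± 134 to 1650.3 ± 43.5 CPM (1.17 ± 0.11, edgeR adjusted p = 1.37e-06) and Npm1 from 405 ± 72.8 to 887 ± 55.9 CPM (1.13 ± 0.11, adjusted p = 2.28e-06). Mybbp1a, a nucleolar cofactor of RNA polymerase I, rose by 0.69 on the log2 scale, and Utp20, a component of the small-subunit processome, by 0.75. The members that fell were Rrp12, a ribosome export factor (-0.49 ± 0.13, adjusted p = 0.0124), and Ipo4, an importin (-0.31 ± 0.10, adjusted p = 0.0336). Leaving out any 1 library other than DMSO replicate 4 removed the call on Ipo4 (adjusted p up to 0.107), and the groups of Rrp12 overlapped. When 1 library was left out, the number that rose ran from 29 (without DMSO replicate 1) to 39 (without DMSO replicate 2), and the number that fell from 1 to 3.

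Of 11 genes known to be repressed by MYC, 10 could be tested, 3 fell (30%, against 12.2% of all tested genes) and 0 rose (against 10.6%; 0 also at an unadjusted p under 0.05, with DESeq2 and with limma-voom), with a median log2 fold change of -0.54. Cdkn1a, which encodes the cell cycle inhibitor p21, fell by 1.85 on the log2 scale, from 439 ± 31.7 to 122 ± 15.7 CPM (edgeR adjusted p = 4.58e-09). Gadd45a, a growth arrest gene, fell from 267 ± 37.6 to 99.1 ± 12.2 CPM, and Thbs1, which encodes thrombospondin 1, from 850.3 ± 87.8 to 478 ± 22.6 CPM. All 3 also respond to factors other than MYC. Cdkn1b (-0.05 ± 0.17) and Cdkn2b (0.19 ± 0.31), the listed genes of 2 further inhibitors of cyclin-dependent kinases, did not pass (adjusted p = 0.888 and 0.763).

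**Figure D4:**
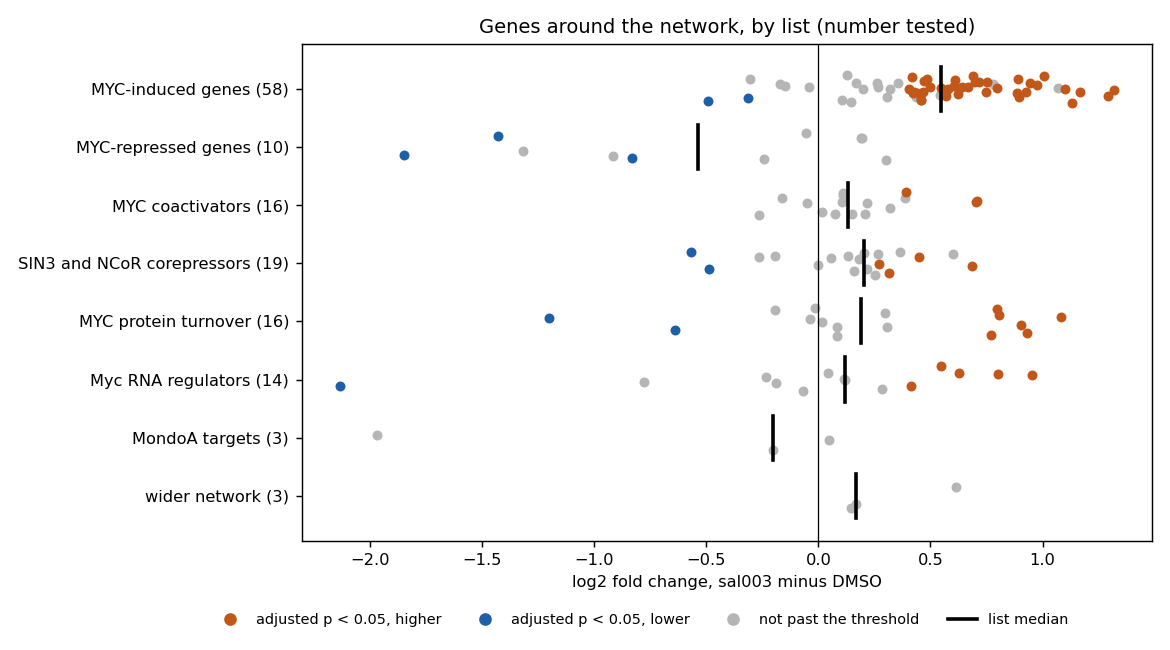
Log2 fold change, sal003 minus DMSO, of every tested gene in 8 lists around the network (1 point per gene, vertical scatter for legibility only), coloured by call, with the list median as a black bar and the number tested in brackets. The median is 0.55 for the MYC-induced list and -0.54 for the MYC-repressed list, and runs from -0.20 to 0.20 over the other 6 lists.

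Of 16 genes listed as coactivators or other partners of MYC, 3 rose (18.8%, against 10.6% of all tested genes), with a median log2 fold change of 0.13. With edgeR 0 fell, 1 at an unadjusted p under 0.05, where DESeq2 called 0 lower and limma-voom 2. The share over all tested genes includes genes of low level. Under a stricter filter of at least 10 CPM in 4 libraries, 3 of the 16 rose and 1 fell. Over all 9120 genes kept by that filter, 1590 rose and 1859 fell. Actl6a, an actin-related subunit of chromatin remodellers and of the TIP60 complex, went from 58.2 ± 5.39 to 95.004 ± 1.04 CPM (0.71 ± 0.10, edgeR adjusted p = 0.000102). Wdr5, which anchors MYC on chromatin, went from 38.7 ± 4.46 to 63.0 ± 2.67 CPM (0.70 ± 0.12). The ATPase Ruvbl2 (0.39 ± 0.13, adjusted p = 0.0330) lost its call without DMSO replicate 3 (adjusted p = 0.0890), sal003 replicate 1 (0.125), sal003 replicate 2 (0.0550) or sal003 replicate 3 (0.0828). Without DMSO replicate 2 the count was 6 higher and 1 lower.

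MXD proteins and MNT act through corepressors. Of 19 genes of the SIN3 and NCoR complexes 4 rose (21.1%, against 10.6% of all tested genes) and 2 fell (10.5%, against 12.2%), with a median of 0.20. Under the filter of at least 10 CPM in 4 libraries, 4 of the 19 rose and 3 fell. Over all 9120 genes kept by it, 1590 rose and 1859 fell. The paralogous scaffolds were called in opposite directions, with Sin3a from 97.5 ± 9.56 to 157 ± 11.4 CPM (0.69 ± 0.10, edgeR adjusted p = 9.89e-05) and Sin3b from 107 ± 5.63 to 76.1 ± 5.04 CPM (-0.49 ± 0.10, adjusted p = 0.00159). The SIN3 complex subunit Sap30 also fell (-0.57 ± 0.14). The other genes that rose were Sap130 (0.45 ± 0.12), the histone-binding Rbbp7 (0.31 ± 0.09) and the deacetylase Hdac2 (0.27 ± 0.09). Sap130 was lost without sal003 replicate 2 (adjusted p = 0.0521). Hdac2 was lost without DMSO replicate 1 (0.0722) or sal003 replicate 1 (0.0888), 2 (0.113) or 4 (0.0706), and with a replicate block (0.0673).

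Among 16 genes that control the stability of MYC protein, 6 rose (37.5%, against 10.6%) and 2 fell (12.5%, against 12.2%), with a median of 0.19. Those that fell act on the same ubiquitin pathway: Fbxw7, the ligase subunit that marks MYC for degradation, went from 39.9 ± 4.79 to 25.6 ± 0.597 CPM (-0.64 ± 0.14, edgeR adjusted p = 0.00328), and Usp28, the deubiquitinase that counteracts it, from 145 ± 19.2 to 63.0 ± 12.97 CPM (-1.20 ± 0.14, adjusted p = 1.45e-05). Set and Cip2a, which encode inhibitors of the phosphatase PP2A, rose by 0.80 and 1.08 on the log2 scale. The mitotic kinases Plk1 (0.93 ± 0.11) and Aurka (0.90 ± 0.11), which can stabilise MYC proteins, rose as well. So did the ubiquitin ligase subunit Skp2 (0.77 ± 0.12) and the deubiquitinase Usp37 (0.80 ± 0.15). Levels of the proteins were not measured.

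Of 14 genes known to act on Myc transcription or on its RNA, 5 rose (35.7%, against 10.6%) and 1 fell (7.14%, against 12.2%), with a median of 0.12. Zfp36l2, which binds AU-rich elements and promotes decay, went from 93.7 ± 7.24 to 163 ± 18.8 CPM (0.80 ± 0.11), and Igf2bp2, an RNA-binding protein of the family that stabilises Myc RNA, from 34.1 ± 5.42 to 66.0 ± 6.72 CPM (0.95 ± 0.14). Fubp1, which binds a single-stranded element upstream of Myc, rose by 0.55 on the log2 scale, and Tcf7l2, a transcriptional effector of WNT signalling, by 0.63. The gene that fell was Igf2bp1, from 8.82 ± 6.19 to 2.01 ± 0.753 CPM (-2.13 ± 0.63, edgeR adjusted p = 0.0244), with overlapping groups. It no longer passed without DMSO replicate 3 (adjusted p = 0.0855) or 4 (0.0752), or without sal003 replicate 1 (0.0866), 2 (0.0873) or 4 (0.0672). With a replicate block its adjusted p was 0.05001.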

How the data were processed

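The values are raw counts of reads per gene, as deposited in a single table. The tools named by the submitters' processing notes are featureCounts 1.4.4, STAR 2.3.0e and Trimmomatic 0.32, with the mm10 build; the strand setting of the counting and the handling of multiply aligned reads are not given there or in the labels. Per the labels' protocols, total RNA was depleted of ribosomal RNA and made into stranded libraries. The dose reads 10 µM in the design text and sample attributes but 10 mM in the treatment protocol, and 10 µM is used here. Between 75.6% and 83.4% of counts from 1 to 20 were even, so counts divided by 2 were tried as an alternative. Replicates were compared by chi-square, and even the closest pair (25.3 per degree of freedom) differed beyond counting noise.

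Counts were filtered with filterByExpr (minimum count 10, total 15), scaled by TMM and fitted with edgeR 4.0.16 in R 4.3.3 (robust quasi-likelihood, 1 term for condition). The two-sided p-values were adjusted by Benjamini-Hochberg over all 15816 tested genes, with a threshold of 0.05. The SE is the log2 fold change divided by the square root of F, and the 95% interval uses the fit's degrees of freedom. CPM per kb divides CPM by the merged exon length in GENCODE M21, in which 96.4% of identifiers were found. The fit was tested on simulated counts. Depth gives precision for counting error only. Alternatives were 2 other scalings, 2 other filters, DESeq2 1.42.0, limma-voom with sample quality weights (limma 3.58.1; called limma-voom in the text), a replicate block, halved counts, protein-coding genes and leaving out each library. Named genes are the members, the wider network, any marker gene and, per list, up to 4 called genes in each direction by p. Pvt1, the MondoA targets, Cdkn1b and Cdkn2b were not called and are named outside that rule. Skp2 and Usp37 were called and are also named outside it. The members, lists and rules were chosen with earlier results of these data known.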

Additional observations from a re-analysis of the deposited data

Results flagged for a closer look

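In 1 of 20 groups of 4 values examined (10 members in 2 conditions), a single library lay apart from the others. Max in DMSO replicate 3 stood at 39.5 CPM, while the other DMSO libraries lay between 34.5 and 35.0 CPM. Chance flags about 1 in 20 such groups by Dixon's criterion. Without that library the log2 fold change of Max was 0.05 (edgeR adjusted p = 0.891).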

How the results depend on the processing

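The calls on Myc, Mycl and Mxd4 kept their direction and stayed past the threshold in all 17 alternatives, with log2 fold changes of 0.80 to 1.03, -0.70 to -0.47 and -1.21 to -0.88 and adjusted p up to 0.0113, 0.0146 and 0.0101. The number of members called was 3 or 4 in each alternative, the fourth being Mxd1, and the number of all genes called ran from 2883 to 4471 when 1 library was left out. Estimates near 0 changed sign without any call. Max was 0.00298 without a filter, 0.0109 among protein-coding genes, and -0.0782 to 0.0495 when 1 library was left out. Under the same omissions Mlx ran from -0.185 to 0.0481 and Mycn from -0.0526 to 1.27. With a filter of 10 CPM in 4 libraries, Mxd1, Mxd3 and Mycn could not be tested. Over all 9120 genes kept by that filter, 1590 were higher and 1859 lower, against 1 and 2 of 7 members. The lists had 37 higher and 4 lower of 56 MYC-induced genes, and 0 and 3 of 6 MYC-repressed genes. They had 6 and 2 of 16 genes of MYC protein turnover, and 5 and 0 of 10 regulators of Myc RNA.

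In the labels, same-numbered DMSO and sal003 libraries have only a number in common. The correlations of their deviations from the group means were -0.02, 0.08, 0.06 and 0.0016, and whether they have a common origin was not tested. With the replicate block 3430 genes were called, and 3 members (Myc 0.91, Mycl -0.61, Mxd4 -1.05). Called genes of the coactivator list numbered 3 in the fit reported, 9 with limma-voom and sample quality weights, 5 among protein-coding genes and 7 without DMSO replicate 2. Called MondoA targets numbered 0, with 1 lower under the weighted limma-voom fit and 1 higher without DMSO replicate 2. Of 29 called genes named in the lists by the rule on p, 24 stayed past the threshold in every alternative that tested them. Mycn had at most 100 counts per library, from 0 to 72 in DMSO, and its SE was 1.22 in the fit reported and 1.09 with halved counts. Halving rescales the counts without drawing reads anew, so whether depth limits this estimate was not tested.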
